A study of Homo sapiens with 60 samples.

Results

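Okbyeongpung-san is a 3-herb formula of East Asian medicine, made from Astragalus root, Atractylodes rhizome and the root of Saposhnikovia divaricata (Saposhnikoviae Radix). HepG2, a human hepatocellular carcinoma line that keeps many features of hepatocytes, was exposed for 24 h to a water extract of the formula, and RNA was sequenced. The comparison described here is the highest dose, 500 µg/mL (3 libraries), against the lowest, 20 µg/mL (3 libraries), and was chosen by the labels of these 6 libraries out of 60. All 16644 genes with enough counts were tested. The middle dose, 100 µg/mL, and cells given DMSO (vehicle; 0.1% in the sample labels and 2% in the series' design text), with 3 libraries each, are given beside it. The corresponding doses of Saposhnikoviae Radix alone and of another formula, Soyo-san, both also water extracts applied for 24 h, serve as comparisons. The study's declared purpose was to describe herbal preparations through the transcriptomes they induce.

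The 9 Okbyeongpung-san libraries held between 21023544 and 29404937 expected counts each, so that 3 counts, the limit that a count of 0 allows, correspond to between 0.102 and 0.143 CPM (counts scaled to library size). The labels do not say whether replicates were separate cultures, so p-values measure a spread between libraries that may be technical. That spread was estimated jointly over 57 libraries in 19 groups, including those of other extracts. Replicate 3 at 20 µg/mL stood apart from its group: the chi-square per degree of freedom over genes was 15.4 and 16.7 against replicates 1 and 2, and 4.81 between those. Replicate 3 at 100 µg/mL (13.1 and 7.21, against 4.47) and replicate 1 of vehicle (17.3 and 14.2, against 3.21) also stood apart. The summed level of 12 hepatocyte markers was similar at both doses (48790 to 51670 CPM at 20 µg/mL, 48590 to 48670 at 500). In bulk RNA, fewer cells that express a gene and less RNA per cell cannot be told apart. Of 9 leukocyte markers PTPRC and MS4A1 were at 0 counts in all 6 libraries and 4 were tested. Their summed level, 1128 to 1318 CPM at 20 and 1139 to 1243 at 500, was mostly LYZ, which measured 1083 to 1248 CPM at 20 and 1090 to 1188 at 500. MALAT1, a nuclear RNA, lay between 404 and 568 CPM in the 9 libraries and between 243 and 259 in vehicle, so vehicle values are given as a description only. Replicate 3 was the highest library at 20 and at 100 µg/mL, with 541 and 568 CPM. The other libraries of these doses lay between 408 and 488, and those at 500 between 404 and 471. What sets replicate 3 apart at these doses was not tested. At 20 and 500 µg/mL, MALAT1 lay between 206 and 244 CPM with Saposhnikoviae Radix and between 410 and 509 with Soyo-san.

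Several of the genes that differed belong to pathways with well-known logic. The aryl hydrocarbon receptor (AHR) binds planar aromatic compounds in the cytosol, enters the nucleus and, with its partner ARNT, switches on enzymes that oxidise such compounds, of which CYP1A1 is the most inducible. NRF2 is held in check by KEAP1 until electrophiles modify that protein, and then raises antioxidant and detoxifying enzymes, including aldo-keto reductases. ATF4 is translated when amino acids are scarce or proteins misfold, and raises amino acid synthesis and import genes such as asparagine synthetase, ASNS.

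The promoters of CYP1A1 and ASNS are shown because these genes moved furthest up and down among the genes called. Each is the 250 bases before the RefSeq transcription start (GRCh38.p14, minus strand), from 5′ to 3′. CYP1A1 starts the first line, at chr15:74725529-74725778, and its capitals mark GCGTG, the core of the xenobiotic response element bound by AHR and ARNT, whose first base is 57 bases before the start. For ASNS, at chr7:97872409-97872658 and the first of 2 starts listed, the capitals mark TGATGAAA, a match to TGATGNAA, a core shared by ATF4 and C/EBP factors, 68 bases before the start; the window of the other ASNS start held no match to it.
CYP1A1: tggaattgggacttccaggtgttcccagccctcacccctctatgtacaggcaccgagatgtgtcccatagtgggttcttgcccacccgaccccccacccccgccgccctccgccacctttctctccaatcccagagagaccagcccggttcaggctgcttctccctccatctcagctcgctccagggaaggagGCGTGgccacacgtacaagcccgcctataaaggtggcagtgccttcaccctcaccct
ASNS: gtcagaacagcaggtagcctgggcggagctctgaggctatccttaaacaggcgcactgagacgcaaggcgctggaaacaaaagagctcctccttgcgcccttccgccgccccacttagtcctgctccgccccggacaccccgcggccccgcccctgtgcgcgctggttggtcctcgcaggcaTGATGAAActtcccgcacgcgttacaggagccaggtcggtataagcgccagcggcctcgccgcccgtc
On either strand, GCGTG was held by 32.2% of 35116 RefSeq promoter windows of the same length, and TGATGNAA, chosen after the values were seen, by 3.14%. The ASNS window also holds 1 match to GCGTG, on the opposite strand, which does not overlap the marked motif. A match is a description of these letters only.

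Between 20 and 500 µg/mL, 4 genes of 16644 were called (0.024%) by edgeR's quasi-likelihood test at an adjusted p under 0.05. CYP1A1, AKR1C2 and AKR1B10 rose (0.018% of genes) and ASNS fell (0.00601%). All 4 calls stood when each of the 6 libraries was left out in turn. With a fit to only the groups compared AKR1C2 was not called (log2 0.38, edgeR's adjusted p = 0.0915). At an unadjusted p under 0.05 there were 369 genes higher (2.22%) and 407 lower (2.45%), and the median log2 fold change over all genes was −0.0015. Among the 10757 genes with a mean of at least 5 CPM, the median standard error of a log2 fold change was 0.0698, and the smallest change called between these doses was 0.378 in absolute size.

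**Figure D1:**
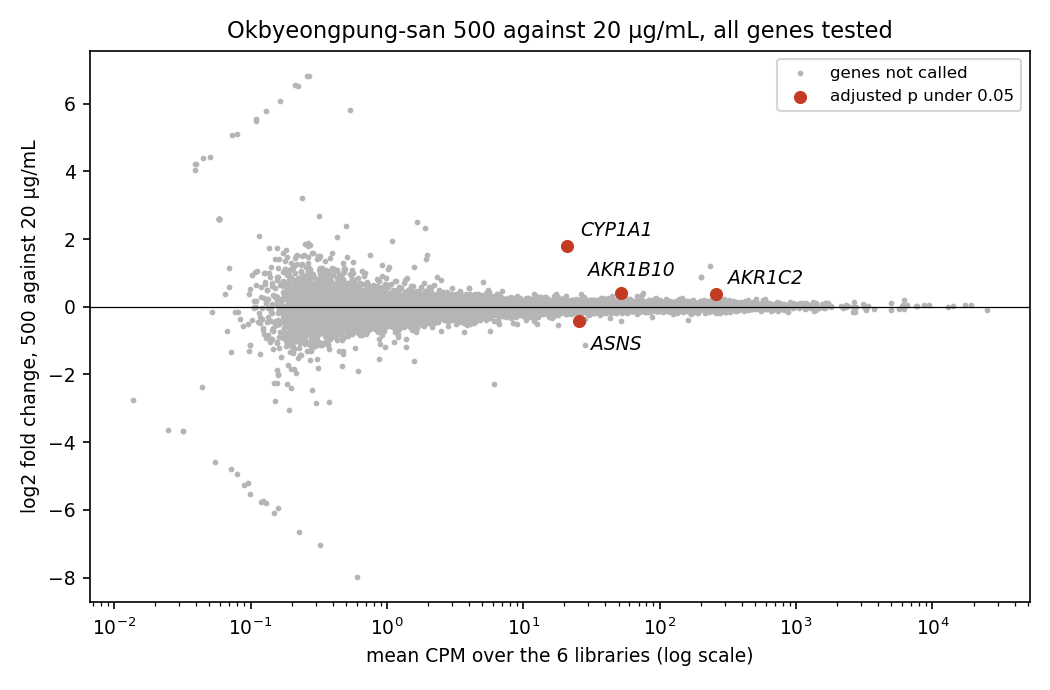
Each point is 1 of 16644 genes, with the mean CPM over the 6 libraries on a log scale (horizontal) and the log2 fold change of 500 against 20 µg/mL (vertical). Red points are the 4 genes called, of which CYP1A1 stands highest at 1.79; points beyond 4 in absolute value lie below 1 CPM.

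CYP1A1, the cytochrome P450 that oxidises polycyclic aromatic hydrocarbons (chromosome 15, 74719542 to 74725610, minus strand, GRCh38), measured 9.76, 9.71 and 8.84 CPM at 20 µg/mL and 33.1, 33.6 and 31.1 CPM at 500. All 3 libraries at 500 were far above all 3 at 20, with little spread inside either group. The ratio was 3.46 (log2 fold change 1.79 ± 0.07 SE, edgeR's quasi-likelihood test, adjusted p = 2.41e-26). At 100 µg/mL it measured 13.3, 12.4 and 11.5 CPM, between the other doses with no overlap. Both steps were called, 0.40 on the log2 scale from 20 to 100 (edgeR's adjusted p = 0.0319) and 1.39 from 100 to 500 (edgeR's adjusted p = 2.78e-22). The lower step was lost when any of 5 libraries was left out, as given below. Vehicle libraries measured 8.49, 7.07 and 7.68 CPM, all below the lowest library at 20.

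AKR1C2, an aldo-keto reductase that reduces ketosteroids and reactive carbonyls (chromosome 10, 4987400 to 5018031, minus strand), measured 242, 221 and 207 CPM at 20 µg/mL and 293, 288 and 290 at 500. The libraries at 500 lay close together and above every library at 20. The log2 fold change was 0.38 ± 0.05 (SE, edgeR's adjusted p = 2.58e-05). At 100 µg/mL the values were 252, 236 and 213 CPM, overlapping those at 20 and all below those at 500. AKR1C1 to AKR1C4 are closely related neighbours whose shared reads were divided by estimation. Their summed level was 868, 840 and 803 CPM at 20 and 993, 1016 and 994 at 500, without overlap, and its log2 fold change was 0.26 ± 0.05, which edgeR's test did not call (adjusted p = 0.0538). The more abundant AKR1C1, at 556, 555 and 535 CPM at 20 and 633, 656 and 634 at 500, makes up most of that sum and had 0.22 ± 0.06 (edgeR's adjusted p = 0.246). How the division of shared reads bears on the call of AKR1C2 was not tested.

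AKR1B10, an aldo-keto reductase that reduces retinals and other aldehydes (chromosome 7, 134527592 to 134541408, plus strand), measured 46.0, 43.1 and 44.2 CPM at 20 and 57.1, 62.1 and 58.8 at 500. The groups did not overlap. Its log2 fold change was 0.42 ± 0.06 (SE, edgeR's adjusted p = 4.16e-05). With its closely related neighbour AKR1B15 added the value was again 0.42 (edgeR's adjusted p = 7.79e-05). At 100 µg/mL it measured 47.4, 46.4 and 44.9 CPM, overlapping the lowest dose and below the highest.

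ASNS, which makes asparagine from aspartate and glutamine (chromosome 7, 97852118 to 97872542, minus strand), measured 29.8, 28.9 and 28.8 CPM at 20 and 21.84, 21.85 and 21.99 at 500. Every library at 500 was below every library at 20. It fell by 0.41 ± 0.07 on the log2 scale (SE, edgeR's adjusted p = 0.000513). The libraries at 100 µg/mL, at 23.42, 22.96 and 22 CPM, lay beside those at 500. Most of the difference lay in the lower step. ASNS fell by 0.36 from 20 to 100 (edgeR's adjusted p = 0.0319), a call kept without replicate 3 at 20 and lost without any other of the 6 libraries, and the value from 100 to 500 was −0.06 (edgeR's adjusted p = 0.823). CYP1A1 and the aldo-keto reductases had their larger difference in the upper step instead; whether the steps differ from each other was not tested.

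**Figure D2:**
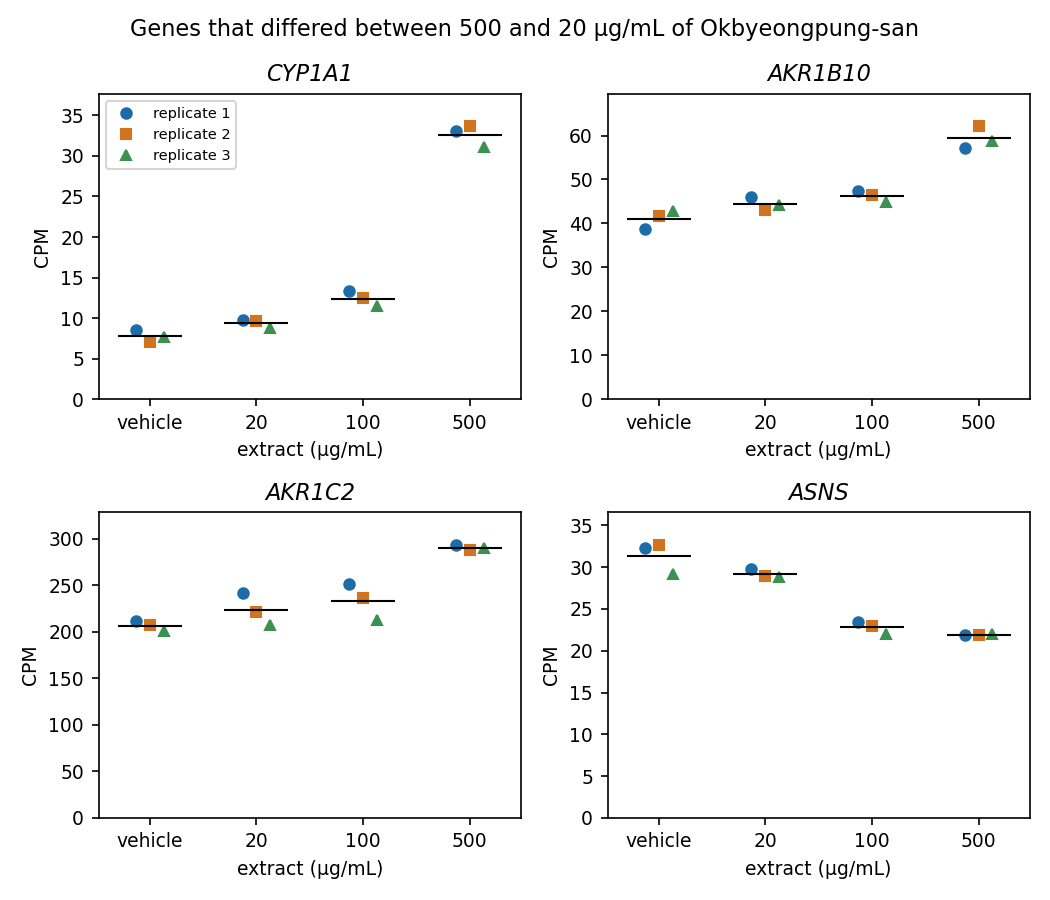
CPM of the 4 called genes (vertical, from 0) in vehicle and at 20, 100 and 500 µg/mL of the extract (horizontal), with 1 symbol per replicate library and a line at the mean of 3. CYP1A1, AKR1B10 and AKR1C2 sit highest at 500, and ASNS is near 22 CPM at both 100 and 500.

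Of 10 listed AHR targets, 6 were tested. CYP1A1 was the 1 called, 4 lay above 0 (49.2% of all genes did, and 50.7% lay below), and the median log2 fold change of the 6 was 0.32. In 4 of the 6 the libraries at 500 lay above those at 20, beside 5.37% of all genes. ALDH3A1, an aldehyde dehydrogenase and a classical AHR target, measured 0.413, 0.571 and 0.637 CPM at 20 and 1.79, 1.04 and 1.06 at 500. Its libraries did not overlap, but at these low counts its log2 value of 1.25 ± 0.28 was not called (edgeR's adjusted p = 0.094). AHRR, the receptor's repressor, had 0.44 ± 0.27, TIPARP, an ADP-ribosyltransferase that dampens the receptor, −0.05 ± 0.07, and CYP2S1 −0.17 ± 0.13 (edgeR's adjusted p = 0.994 for each). CYP1A2, the liver partner of CYP1A1, was too low to test, with 12 summed counts at 500 and 1 at 20. CYP1B1 had 5 at each dose.

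The 27 tested NRF2 targets included the 2 aldo-keto reductases that rose and none that fell. Of the 27, 25 lay above 0, with a median of 0.10, and in 14 the libraries at 500 lay above those at 20, beside 5.37% of all genes (0.018% of all genes were called higher). Without replicate 3 at 20 µg/mL, 24 lay above 0 and the median was 0.07. NQO1, a quinone reductase regulated by both AHR and NRF2, measured 425, 416 and 402 CPM at 20 and 478, 482 and 472 at 500. All of its libraries at 500 were higher, and its log2 value of 0.20 ± 0.05 was not called (edgeR's adjusted p = 0.094). GCLM, the regulatory subunit of the enzyme that starts glutathione synthesis, had 0.19 ± 0.06, the catalytic subunit GCLC 0.10 ± 0.05, TXNRD1, which recycles thioredoxin, 0.13 ± 0.05, and HMOX1, which degrades haem, 0.16 ± 0.06 (edgeR's adjusted p = 0.46 to 0.994). SLC7A11, the cystine importer, lay on the other side of 0, with 44.0, 46.5 and 54.1 CPM at 20 and 38.8, 38.7 and 37.7 at 500. Its libraries did not overlap, and the log2 value was −0.33 ± 0.09 (edgeR's adjusted p = 0.273).

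SLC7A11 is also an ATF4 target. Of 21 tested ATF4 targets, ASNS was the 1 called, 16 lay below 0, and the median was −0.08. In 5 of the 21 the libraries at 500 lay below those at 20, beside 5.53% of all genes. The serine synthesis enzymes PSAT1 and PHGDH had −0.13 ± 0.05 and −0.04 ± 0.05, and MTHFD2, of mitochondrial folate metabolism, −0.12 ± 0.05 (edgeR's adjusted p = 0.981 to 0.994). TRIB3, a pseudokinase that feeds back on ATF4, and DDIT3, which encodes CHOP, had −0.14 ± 0.07 and −0.15 ± 0.13 (edgeR's adjusted p = 0.994 for each). The ATF4 mRNA itself had 0.02 ± 0.06, or −0.06 without replicate 3 at 20 µg/mL. Outside the list, ADM2, which encodes the peptide hormone intermedin, measured 6.78, 8.04 and 7.68 CPM at 20 and 5.77, 5.19 and 5.51 at 500. Its groups did not overlap, and its log2 value of −0.45 ± 0.10 was not called (edgeR's adjusted p = 0.094).

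Genes of fatty acid synthesis had small values on 1 side of 0. All 15 tested members lay below 0, none was called, the median was −0.14, and in 9 the libraries at 500 lay below those at 20, beside 5.53% of all genes. Without replicate 3 at 20 µg/mL the median was −0.07, with all 15 still below 0. ACSS2, which makes acetyl-CoA from acetate, measured 140, 140 and 145 CPM at 20 and 123, 125 and 126 at 500. The groups were separate, at −0.19 ± 0.04 (SE, edgeR's adjusted p = 0.094). SREBF1, the transcription factor that drives the pathway, measured 136, 131 and 136 CPM at 20 and 118, 114 and 112 at 500, again without overlap, at −0.23 ± 0.07 (edgeR's adjusted p = 0.481). The desaturases FADS1 and SCD had −0.19 ± 0.05 and −0.15 ± 0.05, and FASN, the synthase, −0.15 ± 0.08 (edgeR's adjusted p = 0.378 to 0.994). In the neighbouring cholesterol pathway 22 of 25 members lay below 0, with none called and a median of −0.06. HMGCS1, an early enzyme of that pathway, had −0.11 ± 0.05 (edgeR's adjusted p = 0.994).

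**Figure D3:**
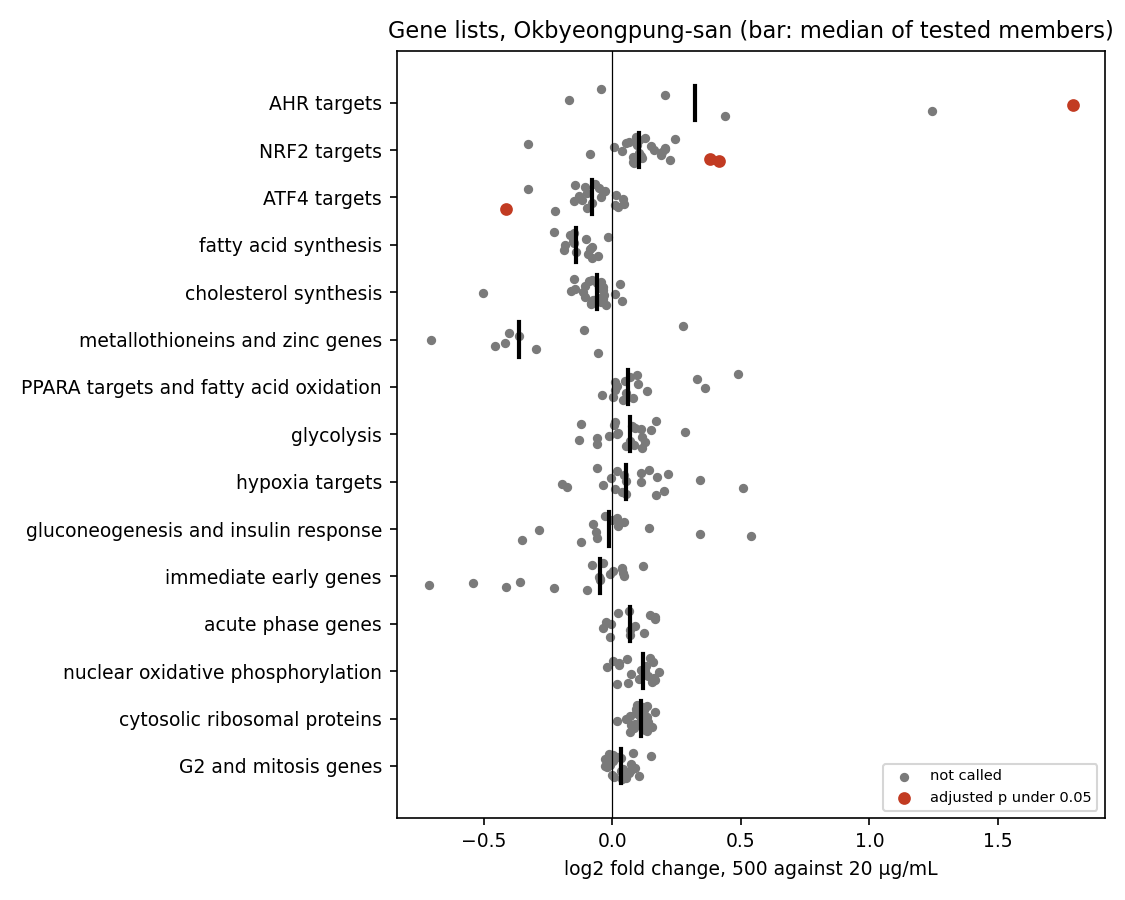
Each grey or red point is a tested member of a gene list, placed by its log2 fold change of 500 against 20 µg/mL (horizontal); black bars are list medians and red points are the genes called. CYP1A1, AKR1C2, AKR1B10 and ASNS are the called members; the 15 fatty acid synthesis members all lie left of 0, and most NRF2 targets lie right of it.

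Metallothioneins, small proteins that bind zinc and copper, had values that differed between replicate 3 and the other libraries at 20 µg/mL. Of 9 tested genes in the list of metallothioneins and zinc genes, 8 lay below 0, with a median of −0.36 and none called. MT1F (chromosome 16, 56657694 to 56660698, plus strand) measured 36.01, 36.6 and 22.55 CPM at 20 µg/mL and 24.5, 21.7 and 22.9 at 500. Replicates 1 and 2 at 20 were above all libraries at 500, and replicate 3 lay among them. The log2 value was −0.46 ± 0.13 (edgeR's adjusted p = 0.481). Without replicate 3 MT1F was called, at −0.66 (edgeR's adjusted p = 0.00882), the median of the 9 was −0.53, and 6 of the 9 had libraries at 500 below those at 20, beside 11.5% of all genes in that reduced set.

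MT2A, the most abundant of the metallothioneins by CPM, had the same arrangement, with 215, 209 and 131 CPM at 20 and 148, 128 and 143 at 500. Replicate 3 at 20 was again among the libraries at 500 (log2 −0.40 ± 0.16, edgeR's adjusted p = 0.935). MT1G measured 67.6, 66.4 and 43.7 CPM at 20 and 46.2, 40.6 and 46.1 at 500 (log2 −0.42 ± 0.14, edgeR's adjusted p = 0.794). MT1X had −0.36 ± 0.12 and MT1E −0.30 ± 0.15 (edgeR's adjusted p = 0.732 and 0.994). These genes share sequence, so their separate levels depend on how shared reads were divided. The promoter window of MT2A held 7 matches to TGCNCNC, the core of the metal response element, on either strand, and that of MT1X held 4. The windows of CYP1A1 and of the first ASNS start held 1 and 2, and in the RefSeq windows 49.1% held at least 1. TGACNNNGC, the core of the antioxidant response element, was held by 10.9% of windows. It had 0 matches in those of AKR1C2, NQO1, CYP1A1 and both ASNS starts, and 1 match each in those of MT1X and MT2A. SLC39A10, a zinc importer, lay on the other side of 0, at 0.27 ± 0.10 (edgeR's adjusted p = 0.866).

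**Figure D4:**
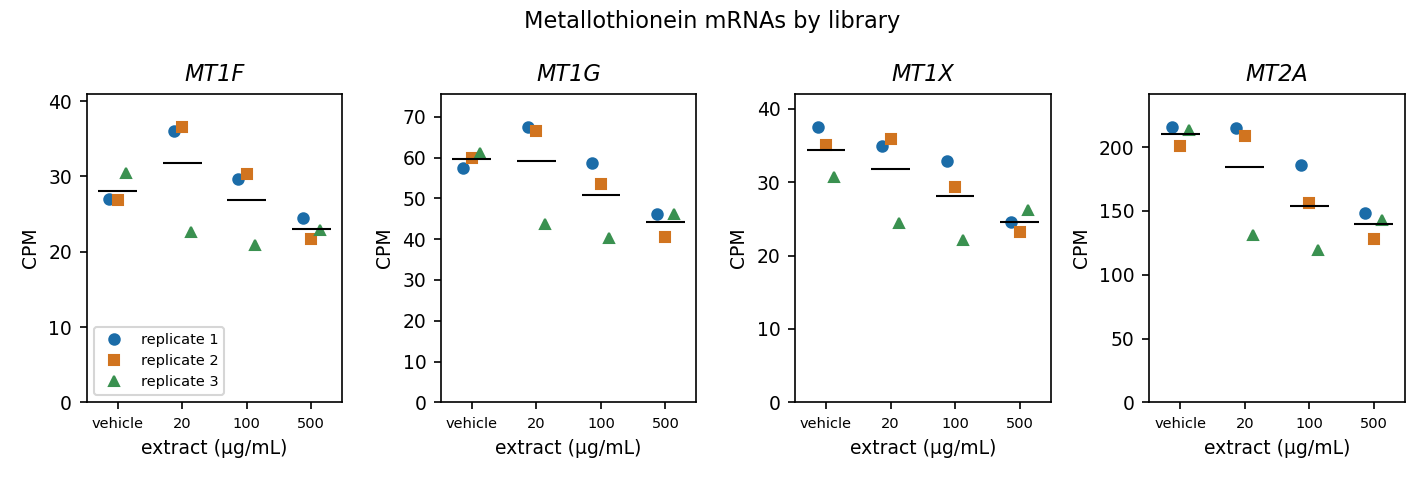
CPM of 4 metallothionein mRNAs (vertical, from 0) in vehicle and at 20, 100 and 500 µg/mL (horizontal), with 1 symbol per replicate library and a line at the mean of 3. Replicate 3 at 20 and at 100 µg/mL lies below the other libraries of its dose for each gene; for MT1F at 20 it is at 22.55 CPM, beside 36.01 and 36.6.

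HAMP, which encodes the iron hormone hepcidin, was low in the same library, with 28.4, 26.2 and 18.7 CPM at 20 and 28.1, 27.0 and 29.2 at 500. Its log2 value of 0.21 ± 0.12 was not called (edgeR's adjusted p = 0.994). Ribosomal protein mRNAs followed that library too. All 25 lay above 0, with a median of 0.11 and none called, but without replicate 3 at 20 µg/mL 12 of 25 lay above 0 and the median was −0.0009. Of 21 nuclear-encoded subunits of oxidative phosphorylation, 20 lay above 0 with a median of 0.12, and without that library 17 did, with a median of 0.03.

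No glucose or lipid handling gene of the lists given next was called between 20 and 500. Of 21 glycolysis genes, 16 lay above 0, with a median of 0.07 and none called. TPI1, triose phosphate isomerase, measured 438, 418 and 409 CPM at 20 and 448, 485 and 489 at 500, without overlap (log2 0.17 ± 0.05, edgeR's adjusted p = 0.583). G6PC1, the last enzyme of glucose release, measured 2.94, 3.09 and 3.75 CPM at 20, 2.27, 2.24 and 2.48 at 100, and 4.37, 4.06 and 5.89 at 500. Its lowest group was the middle dose, and the 500 libraries were the highest. The value from 20 to 500 was 0.54 ± 0.19 (edgeR's adjusted p = 0.795), whereas from 100 to 500 G6PC1 rose by 1.03 (edgeR's adjusted p = 0.0136), a call lost without any library at 100 or without replicate 3 at 500. IGFBP1, a secreted binding protein that insulin represses, measured 39.3, 43.1 and 55.9 CPM at 20 and 44.6, 48.4 and 82.9 at 500, with wide overlap (log2 0.34 ± 0.23, edgeR's adjusted p = 0.994). Of 16 tested fatty acid oxidation genes 15 lay above 0, with a median of 0.06, and CREB3L3, a liver transcription factor of the fasting response, had 0.36 ± 0.11 (edgeR's adjusted p = 0.511). MTTP, which loads lipid onto apolipoprotein B, measured 76.6, 74.4 and 82.6 CPM at 20 and 90.5, 86.1 and 93.9 at 500, without overlap (log2 0.21 ± 0.05, edgeR's adjusted p = 0.184).

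None of the genes of liver function outside these pathways that are given next was called. ALB, the albumin gene, had 0.03 ± 0.05 (edgeR's adjusted p = 0.994), and 13 acute phase genes had a median of 0.07, with none called. MBL2, a lectin of the complement system, measured 13.7, 15.2 and 15.6 CPM at 20 and 16.9, 19.4 and 19.4 at 500. Its groups did not overlap, and the log2 value was 0.33 ± 0.07 (edgeR's adjusted p = 0.094). MAT1A, which makes S-adenosylmethionine in the adult liver, measured 129, 131 and 142 CPM at 20 and 155, 166 and 156 at 500, also without overlap (log2 0.25 ± 0.06, edgeR's adjusted p = 0.154). EGR1, an immediate early transcription factor, measured 13.6, 14.3 and 12.8 CPM at 20 and 10.6, 9.62 and 10.4 at 500, all of the latter being lower (log2 −0.41 ± 0.10, edgeR's adjusted p = 0.216). Of 18 tested immediate early genes 12 lay below 0, with a median of −0.05 and none called. CYP3A4, the main drug-oxidising P450 of the liver and a target of the receptor PXR, was too low to test, with 14 summed counts at 500 and 11 at 20. The 25 genes of G2 and mitosis had a median of 0.03 and the 25 of DNA replication 0.03, with none called in either.

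The upper dose step, 500 against 100 µg/mL, had 12 genes called (0.0721%), 10 higher (0.0601%) and 2 lower (0.012%). It shares the 500 libraries with the comparison above, so its values are given side by side and not as further support. CYP1A1, AKR1B10, AKR1C2, AKR1C1, UNC93A, G6PC1, CXCL16, GPX2, MBL2 and ODAM rose, and FBXL22 and TUB fell, by edgeR's quasi-likelihood test. GPX2, a glutathione peroxidase, measured 308, 294 and 260 CPM at 100 and 367, 356 and 368 at 500. The groups were separate, with a log2 fold change of 0.34 (edgeR's adjusted p = 0.0136). From 20 to 500 its value was 0.17 ± 0.07, with replicate 3 at 20, at 266 CPM, below the other libraries (edgeR's adjusted p = 0.896). CXCL16, a membrane-bound chemokine, measured 43.8, 44.9 and 40.3 CPM at 20, 37.4, 37.6 and 36.7 at 100 and 44.6, 44.0 and 47.7 at 500. Its middle dose was the lowest, and it rose by 0.29 over the upper step (edgeR's adjusted p = 0.0136).

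TUB, a gene of the tubby family, had its highest level at the middle dose. It measured 21.5, 21.04 and 24.1 CPM at 20, 23.7, 24.6 and 27.2 at 100 and 20.2, 20.9 and 20.5 at 500, and fell by 0.29 over the upper step (edgeR's adjusted p = 0.0362). CYP1A1 and AKR1B10 kept their upper-step calls whichever library was left out, and AKR1C2 lost its own without replicate 3 at 100. Each of the other 9 was lost on leaving out at least 3 of the 6 libraries. AKR1C1 was lost on leaving out any of the 6, and TUB on leaving out any but replicate 1 at 100. A fit to only the groups compared kept 3 of the 12 calls, CYP1A1, AKR1B10 and G6PC1. AKR1C2 was not called there (edgeR's adjusted p = 0.0703). With code 7 alone 6 of the 12 were kept: those 3, AKR1C1, AKR1C2 and UNC93A. Neither fit called FBXL22 or TUB. The count of 12 depended on single libraries: it was 3 without replicate 2 at 100, 4 without replicate 3 at 100, 7 without replicate 2 at 500 and 3 without replicate 3 at 500. The lower step, 100 against 20 µg/mL, had 2 genes called (0.012%), CYP1A1 and ASNS. It had 0 called without replicate 1 or 2 at either dose (548 to 1081 genes at an unadjusted p under 0.05), 1 without replicate 3 at 100 and 20 without replicate 3 at 20. CYP1A1 was the 1 gene called without replicate 3 at 100, and ASNS was among the 20.

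Saposhnikoviae Radix is a component of the formula, so its own difference between 500 and 20 µg/mL was compared with that of Okbyeongpung-san by an interaction contrast, in which no library is shared. The formula also holds other herbs, so equal doses of the extracts need not hold equal amounts of the root. The first number of the library codes differs between these extracts (5 for the root, 7 for the formula), as do the MALAT1 levels given above. Extract and code therefore cannot be told apart. The dose differences of the extracts were called different for 3 genes (0.018%). CYP1A1 measured 13.7, 13.7 and 13.8 CPM at 20 and 75.5, 83.1 and 81.5 at 500 of the root alone. Its log2 difference was 2.54 ± 0.06 there and 1.79 ± 0.07 for the formula, a difference (formula minus root) of −0.75 ± 0.10 (edgeR's interaction test, adjusted p = 4.19e-06).

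TFRC, the transferrin receptor that imports iron, measured 414, 429 and 428 CPM at 20 and 315, 281 and 317 at 500 of Saposhnikoviae Radix, a separation that the formula lacked. With the formula it measured 384, 387 and 464 at 20 and 404, 422 and 407 at 500, overlapping. The difference between the dose differences was 0.47 ± 0.09 (edgeR's interaction test, adjusted p = 0.0313). LY6G5B, of the Ly6 family, had −0.48 ± 0.12 with the formula and 0.38 ± 0.11 with the root, a difference of −0.85 ± 0.16 (edgeR's interaction test, adjusted p = 0.017). Of these 3 calls CYP1A1 was held whichever library was left out, while TFRC was lost on leaving out any of 9 of the 12 libraries and was kept without replicate 3 at 20 of the formula or replicate 1 or 3 at 500 of the root. LY6G5B was lost without replicate 2 or 3 at 20 or replicate 1 at 500 of the formula, or without replicate 1 or 2 at 20 or replicate 2 at 500 of the root. The aldo-keto reductases and ASNS were not called different: AKR1C2 had 0.36 ± 0.05 with the root (difference 0.02 ± 0.07), AKR1B10 0.60 ± 0.06 (−0.19 ± 0.08) and ASNS −0.39 ± 0.07 (−0.03 ± 0.09), which does not show that the extracts act alike.

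Soyo-san libraries carry the same first code number as those of Okbyeongpung-san. Against it, the dose differences were called different for 392 genes (2.36%), 142 with a higher value for Okbyeongpung-san (0.853%) and 250 with a lower one (1.5%). CYP1A1 measured 10.7, 9.86 and 9.25 CPM at 20 and 97.7, 99.1 and 97.6 at 500 of Soyo-san, where its log2 difference was 3.31 ± 0.07. The difference, Okbyeongpung-san minus Soyo-san, was −1.51 ± 0.10 (edgeR's interaction test, adjusted p = 1.96e-16). AKR1B10 too had the smaller value with Okbyeongpung-san (0.42 ± 0.06 against 0.72 ± 0.06, edgeR's interaction test, adjusted p = 0.0393).

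For AKR1C2 and ASNS the larger dose difference was that of Okbyeongpung-san. AKR1C2 measured 227, 221 and 222 CPM at 20 and 205, 203 and 213 at 500 of Soyo-san, where the higher dose was lower in every library (−0.11 ± 0.05). The difference between the extracts was 0.49 ± 0.07 (edgeR's interaction test, adjusted p = 1.67e-05). AKR1C1, which shares reads with AKR1C2, measured 524, 506 and 513 CPM at 20 and 589, 582 and 590 at 500 of Soyo-san (0.19 ± 0.06). Its difference between the extracts, 0.03 ± 0.08, was not called (edgeR's interaction test, adjusted p = 0.949). The summed AKR1C genes were not tested between extracts. ASNS measured 30.1, 30.3 and 31.6 CPM at 20 and 29.5, 30.0 and 28.7 at 500 of Soyo-san (−0.06 ± 0.07), against its fall with Okbyeongpung-san (difference −0.35 ± 0.09, edgeR's interaction test, adjusted p = 0.0258).

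HAMP and MT1G had the largest differences between Okbyeongpung-san and Soyo-san among the genes named here and called different. HAMP measured 25.6, 23.7 and 25.3 CPM at 20 and 4.15, 4.24 and 4.17 at 500 of Soyo-san (−2.57 ± 0.15), and the difference from Okbyeongpung-san was 2.77 ± 0.20 (edgeR's interaction test, adjusted p = 8.24e-14). MT1G measured 54.0, 53.6 and 64.8 CPM at 20 and 12.97, 10.8 and 11.5 at 500 of Soyo-san (−2.29 ± 0.16), a difference of 1.87 ± 0.22 (edgeR's interaction test, adjusted p = 1.3e-07). In the list of metallothioneins and zinc genes, 5 of 9 were called with a higher value for Okbyeongpung-san and 1 with a lower one, beside 0.853% and 1.5% of all genes. In the lipid pathways 8 of 25 cholesterol synthesis genes and 3 of 15 fatty acid synthesis genes were called with a higher value for Okbyeongpung-san, beside the same 0.853%, and none with a lower one. ACSS2 had −0.19 ± 0.04 with Okbyeongpung-san and −0.64 ± 0.04 with Soyo-san (edgeR's interaction test, adjusted p = 6.51e-07). EGR1 had values on opposite sides of 0, −0.41 ± 0.10 and 0.48 ± 0.10 (edgeR's interaction test, adjusted p = 2.98e-05).

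**Figure D5:**
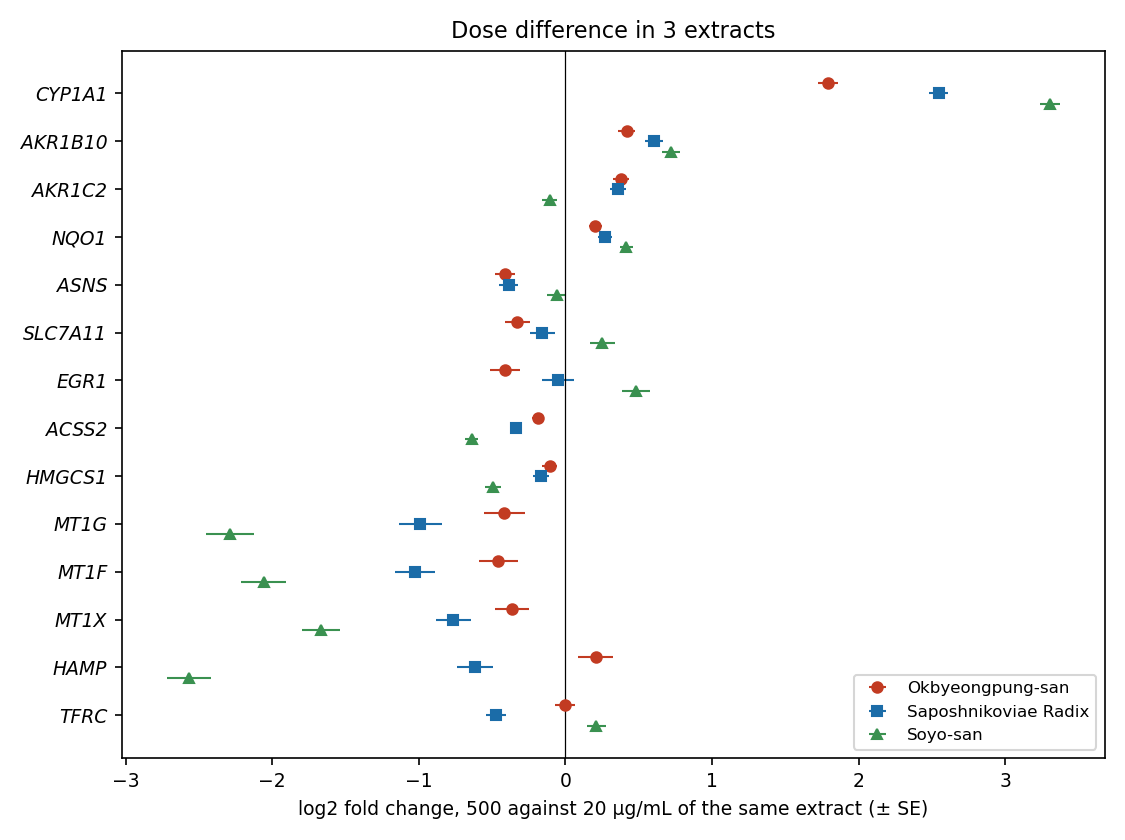
Log2 fold change of 500 against 20 µg/mL (horizontal, bars ± SE) of 14 genes for Okbyeongpung-san, Saposhnikoviae Radix and Soyo-san, each within its own 6 libraries. CYP1A1 runs from 1.79 to 3.31, and HAMP lies near 0 for Okbyeongpung-san and at −2.57 for Soyo-san.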

How the data were processed

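HepG2 cells were profiled by RNA-seq after 24 h with 1 of several plant extracts. The authors deposited expected counts per Ensembl gene for 60675 genes and 60 libraries, made with FastQC 0.11.9, Trim Galore 0.6.5, STAR 2.7.3a and RSEM 1.3.3 on GRCh38, per the submitters' processing notes. Neither the annotation release nor the strand setting of the counting was found; both are not given in the sources used. The library kit is directional, per the labels' protocols.

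Expected counts were rounded, filtered with edgeR's filterByExpr by group (minimum count 10, which left 16644 genes) and scaled by TMM. One edgeR 4.0.16 quasi-likelihood model with robust dispersions was fitted to 57 libraries in 19 groups of 3, without a replicate block, and single contrasts were tested with its F test (R 4.3.3). Each adjusted p is Benjamini-Hochberg over all 16644 genes, and a gene was called under 0.05. Standard errors (SE) were taken from the F statistic (size of the log2 fold change divided by the root of F). CPM use the TMM-adjusted library total, except for sums over marker lists and MALAT1, which use the unadjusted total. A differential dose response between 2 extracts was tested as an interaction contrast. The fitting code was tested on simulated data.

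Symbols came from a table of gene names (56558 IDs) and GENCODE v29 (497 more). Positions came from GENCODE v29. Promoters came from a RefSeq table (GRCh38.p14), in which 6 of 9 genes searched had an entry. A motif was searched on both strands in the 250 bases before each start. Named genes were those called with at least 5 CPM in either group and no overlap of the libraries (up to 15 in each direction), up to 3 called genes of each list, 13 genes given in any case, and up to 5 called genes with at least 5 CPM in each direction of each interaction. Other genes, among them ALDH3A1, AHRR, ADM2, MBL2, MAT1A, ACSS2, CXCL16 and TUB, were chosen after their values were seen. The comparison, the gene lists and the naming rule were chosen with earlier results of these data known.

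Alternatives were RLE scaling, no filter, DESeq2 1.42.0, smaller sets of libraries, a replicate block and each library left out in turn. Another, chosen after seeing the data, summed closely related aldo-keto reductase genes. The 3 single libraries of Soshiho-tang were left out because they have no replicates.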

Additional observations from a re-analysis of the deposited data

Results flagged for a closer look

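Dose differences (500 against 20 µg/mL) that differed between Okbyeongpung-san and another extract by edgeR's interaction test were singled out, and each value here is the log2 dose difference of Okbyeongpung-san minus that of the other extract. Against Saposhnikoviae Radix they were CYP1A1 at −0.75 (adjusted p = 4.19e-06), LY6G5B at −0.85 (adjusted p = 0.017) and TFRC at 0.47 (adjusted p = 0.0313), where the first code number of the libraries differs with the extract and cannot be told apart from it.

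Against Soyo-san, whose libraries have the same first code number, positive values by edgeR's interaction test were HAMP 2.77 (adjusted p = 8.24e-14), MT1G 1.87 (1.3e-07), MT1F 1.60 (9.05e-07), MT1E 1.41 (7.92e-05), MT1X 1.31 (2.32e-06), AKR1C2 0.49 (1.67e-05), ACSS2 0.45 (6.51e-07) and HMGCS1 0.39 (0.000728), with adjusted p in parentheses. Negative values by the same test were CYP1A1 −1.51 (adjusted p = 1.96e-16), B3GNT3 −1.04 (0.000349), AQP3 −0.996 (0.000404), FBXL22 −0.98 (0.0405), RBM47 −0.98 (1.15e-05), the pseudogene CCT8P1 −0.94 (0.000652), EGR1 −0.89 (2.98e-05), ADM2 −0.68 (0.00121), SLC39A10 −0.58 (0.0108), SLC7A11 −0.58 (0.00183), MBL2 −0.37 (0.0364), ASNS −0.35 (0.0258) and AKR1B10 −0.30 (0.0393). AQP3, a water and glycerol channel, measured 2.32, 2.38 and 2.14 CPM at 20 and 2.65, 2.41 and 3.42 at 500 of Okbyeongpung-san, and 2.18, 2.94 and 2.23 at 20 and 6.55, 5.99 and 5.75 at 500 of Soyo-san. RBM47, an RNA-binding protein, went from 5.29, 6.61 and 4.98 CPM to 10.2, 10.2 and 9.31 with Soyo-san, while its libraries at both doses of Okbyeongpung-san overlapped. With 3 libraries a group, no sample was tested as an outlier of its group.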

How the results depend on the processing

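The 4 calls of 500 against 20 µg/mL were all kept under RLE scaling (4 genes called), no filter, DESeq2 (6 called), only the 18 libraries of code 7 (5 called) and each library left out (4 to 6 called). A fit to only the groups compared kept 3 of the 4, losing AKR1C2 (edgeR's adjusted p = 0.0915). Summing AKR1C1 to AKR1C4 lost that call too (edgeR's adjusted p = 0.0538). The count was 108 with no filter. The replicate numbers do not pair the libraries at 500 with those at 20: deviations of same-numbered libraries correlated at 0.0313, −0.0241 and −0.0229. With a replicate block the count was 9, keeping all 4 genes, and with a replicate block and only the groups compared it was 1, CYP1A1, while AKR1C2, AKR1B10 and ASNS had log2 values of 0.38, 0.42 and −0.41 (adjusted p = 0.312 for each).

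For 500 against 100 the count of 12 became 345 with no filter, 30 with DESeq2 (CYP1A1 having no adjusted p there), 6 with only the groups compared, 6 with code 7 alone, 34 with a replicate block and 3 to 11 with a library left out. Of the 12, 3 were among the genes called with only the groups compared, and 6 among those called with code 7 alone. For 100 against 20 the count of 2 became 124 with no filter, 4 with a replicate block, 222 with a replicate block and only the groups compared, and 0 to 20 with a library left out. It was 0 with edgeR on only the groups compared and on code 7 alone, where 548 and 858 genes had an unadjusted p under 0.05. DESeq2 on all groups called 3. Deviations of same-numbered libraries at 100 and 20 correlated at 0.11, 0.00454 and 0.191, and those of other pairs at −0.199 to 0.104. Against Saposhnikoviae Radix the count of 3 became 118 with no filter, 1 with only the groups compared and 1 to 4 with a library left out. Against Soyo-san 392 became 271 to 560 over all alternatives, 560 being the replicate block. The cause of these shifts was not tested.

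Log2 fold changes of single genes were recomputed in 1052 combinations of gene and setting, of which 992 kept their direction and side of the threshold. The sign changed for ATF4 (−0.0579 without replicate 3 at 20, in a range of −0.0579 to 0.0826 over libraries left out) and for TFRC, whose main value is −0.00: it was 0.0032 with no filter, 0.0001 with only the groups compared, 0.0014 with a replicate block, 0.0049 with a replicate block and only the groups compared, and −0.0463 to 0.0914 with a library left out. Depth limits genes near the 0.102 to 0.143 CPM that 3 counts represent.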

Other observations

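Among the 10757 genes with a mean of at least 5 CPM, 4 had a fitted change of at least 2-fold between the doses, and of these CYP1A1 alone was called (the fourth has no symbol). RGPD5, 1 of a family of near-identical genes, measured 10.7, 5.81 and 13.7 CPM at 20 µg/mL and 2.46, 2.68 and 1.10 at 500, with a log2 value of −2.28 ± 0.98 (edgeR's adjusted p = 0.991). TUBA1B-AS1, which is antisense to a tubulin gene and whose reads cannot be told from that gene's if strand was not used in counting, measured 63.0, 53.6 and 0.0375 CPM at 20 and 36.3, 0.0670 and 17.1 at 500. The doses overlap, and the values vary widely within each (log2 −1.14 ± 1.49, edgeR's adjusted p = 0.994).

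THBS1, which encodes the matrix glycoprotein thrombospondin, measured 272, 281 and 324 CPM at 20 and 244, 270 and 263 at 500, without overlap (log2 −0.18 ± 0.05, edgeR's adjusted p = 0.615). NEAT1, the RNA scaffold of nuclear paraspeckles, measured 194, 214 and 206 CPM at 20 and 183, 180 and 174 at 500, also without overlap (log2 −0.19 ± 0.08, edgeR's adjusted p = 0.991). Of 15 tested circadian clock genes 13 lay below 0, with a median of −0.06 and none called.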
